A study of Mus musculus with 7 samples.

Results

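The core circadian clock genes of the left ventricle are described here in single mouse hearts. The 10 members were chosen by name from the genes of the core clock loop, namely *Arntl* (also named *Bmal1*), *Clock*, *Npas2*, *Cry1*, *Cry2*, *Per1*, *Per2*, *Per3*, *Nr1d1* and *Nr1d2*. They are 10 of 20927 genes in the count table, and all 10 passed the filter on low counts that 13894 genes passed (at least 10 counts in at least 3 libraries).

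Left ventricular RNA was sequenced from 3 WT hearts (replicates 1, 3 and 4) and from 4 hearts homozygous for the titin variant A178D (replicates 1 to 4). Each library came from 1 labelled heart sample, and both groups carry the strain label C57BL/6J. The variant had been introduced with CRISPR-Cas9 into C57BL/6N embryonic stem cells, and the line was then backcrossed to C57BL/6J. Mice were kept on a fixed light-dark cycle, but the time of day at which each heart was collected is not given in the sources used here. Neither age nor sex is stated in the labels of these hearts. The Y-linked gene *Ddx3y* was read in all 7 hearts, between 75.2 and 119 CPM (counts scaled to a common library size by TMM). The libraries held between 33080675 and 54245530 counts.

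The clock is a feedback loop of transcription. ARNTL pairs with CLOCK or NPAS2 and activates the *Per*, *Cry* and *Nr1d* genes through E-boxes, PER and CRY proteins then repress that activation, and the NR1D receptors repress *Arntl* through ROR elements. *Arntl* RNA therefore peaks at about the time of day when *Per* and *Nr1d1* RNA is low, in the heart as in other tissues, and such genes are said to be in antiphase.

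Marker genes of ventricular and atrial myocytes were read in these hearts. *Myh6*, the adult cardiac myosin heavy chain, was the most abundant of 7 ventricular myocyte markers and lay between 35690 and 41666 CPM. Of 5 atrial markers, *Bmp10* was at 0 in all 7 hearts, *Sln* was at most at 0.0991 CPM and *Myl7* at most at 0.152 CPM. *Myl4*, named after its values were seen, was at 1.85 to 1.90 CPM in WT and 2.14 to 4.01 CPM in A178D hearts (log2 fold change 0.65 ± 0.23, adjusted p = 0.171 in edgeR). *Nppa* was the most abundant of the atrial list and is a gene also known from stressed ventricles. It was at 109 to 249 CPM in WT and 322 to 588 CPM in A178D hearts (log2 fold change 1.31 ± 0.24, adjusted p = 0.0146 in edgeR). It was not called without WT 3, WT 4 or A178D 1, where its log2 fold changes were 1.33, 1.05 and 1.22. *Ttn*, the gene that carries the variant, was read at 7244, 6246 and 6485 CPM in WT 1, 3 and 4 and at 5360, 6173, 6489 and 4086 CPM in A178D 1 to 4. These groups overlapped, and gene counts do not show the variant itself.

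Levels between the clock genes were compared per kilobase of merged exon. In WT hearts the order was *Nr1d1* (43.5 ± 12.5 CPM per kb, SD, n = 3), *Nr1d2* (40.0 ± 3.20), *Per1* (18.0 ± 1.87), *Cry2* (12.1 ± 0.538), *Per3* (9.57 ± 0.411), *Per2* (9.43 ± 1.77), *Cry1* (4.82 ± 0.597), *Clock* (3.04 ± 0.328), *Npas2* (0.475 ± 0.0439) and *Arntl* (0.216 ± 0.0949). The neighbours *Nr1d1* and *Nr1d2*, and *Per3* and *Per2*, differed by less than their spread. In A178D hearts 2 neighbouring pairs stood in the other order. *Clock* (3.61 ± 0.714 CPM per kb, SD, n = 4) was level with *Cry1* (3.39 ± 0.304) within the spread, as was *Arntl* (0.738 ± 0.287) with *Npas2* (0.545 ± 0.119). *Arntl* was thus read from few counts, between 54 and 351 per heart.

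*Arntl* (ENSMUSG00000055116, chromosome 7 from 113207465 to 113314126, GRCm38) encodes the partner that both activator pairs share. Its level was 2.43, 1.10 and 1.33 CPM in WT 1, 3 and 4 and 8.70, 5.24, 4.15 and 4.14 CPM in A178D 1 to 4. Every A178D heart was above every WT heart. Within WT the heart numbered 1 was the high one, and within A178D the heart numbered 1 stood above the other 3. The log2 fold change of A178D over WT was 1.77 ± 0.31 (standard error, edgeR's quasi-likelihood model over all tested genes).

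*Clock* (ENSMUSG00000029238, chromosome 5 from 76209868 to 76304792) encodes the partner of ARNTL. It was read at 46.9, 38.5 and 39.9 CPM in WT 1, 3 and 4 and at 59.0, 50.4, 52.9 and 35.8 CPM in A178D 1 to 4. The groups overlapped, since A178D 4 was below all WT hearts while the other A178D hearts were above them. Its log2 fold change was 0.25 ± 0.13.

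*Npas2* (ENSMUSG00000026077, chromosome 1 from 39193731 to 39363236) encodes an alternative partner of ARNTL. Its level was 2.07, 2.49 and 2.26 CPM in WT 1, 3 and 4 and 2.60, 3.34, 2.55 and 1.95 CPM in A178D 1 to 4. A178D 4 was again the lowest heart, A178D 2 was the highest, and the groups overlapped. A log2 fold change of 0.21 ± 0.21 was fitted. Among the 3 activator genes, *Arntl* was thus the one whose groups were apart.

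*Per1* (ENSMUSG00000020893, chromosome 11 from 69095217 to 69109960) is the first of 3 *Per* genes, whose proteins repress the activator pair. It was read at 91.7, 112.7 and 100.3 CPM in WT 1, 3 and 4 and at 54.4, 80.6, 101.0 and 100.2 CPM in A178D 1 to 4. A178D 1 was the low heart, and A178D 3 and 4 lay within the WT range. Its log2 fold change was -0.27 ± 0.16.

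*Per2* (ENSMUSG00000055866, chromosome 1 from 91415982 to 91459324) had 43.3, 61.3 and 61.1 CPM in WT 1, 3 and 4 and 24.0, 27.8, 33.5 and 35.0 CPM in A178D 1 to 4. All A178D hearts were below all WT hearts, and WT 1 and A178D 1 were the lowest of their groups. The log2 fold change was -0.88 ± 0.14, the largest fall of the 10 genes.

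*Per3* (ENSMUSG00000028957, chromosome 4 from 151003652 to 151044665) had 88.3, 91.5 and 96.1 CPM in WT 1, 3 and 4 and 56.5, 66.8, 76.7 and 65.7 CPM in A178D 1 to 4. The groups did not overlap, and the lowest hearts of each group were again those numbered 1. A log2 fold change of -0.47 ± 0.09 was fitted. *Per3* lies within the span of *Camta1* on the same strand, which was read between 136.7 and 162 CPM with a log2 fold change of 0.02 ± 0.07.

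*Cry1* (ENSMUSG00000020038, chromosome 10 from 85131700 to 85185064) encodes a cryptochrome that represses the activators together with the PER proteins. It was read at 13.8, 17.6 and 16.8 CPM in WT 1, 3 and 4 and at 10.3, 12.7, 10.8 and 11.5 CPM in A178D 1 to 4. The groups did not overlap, with WT 1 the nearest to the A178D hearts. Its log2 fold change was -0.51 ± 0.11.

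*Cry2* (ENSMUSG00000068742, chromosome 2 from 92403646 to 92434043) encodes the second cryptochrome. Its level was 74.1, 80.5 and 75.2 CPM in WT 1, 3 and 4 and 57.1, 64.9, 70.6 and 69.8 CPM in A178D 1 to 4. The groups were apart by a small gap, and A178D 1 was the lowest heart. The log2 fold change was -0.22 ± 0.08. All 5 repressor genes thus had lower means in A178D, by unequal amounts.

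*Nr1d1* (ENSMUSG00000020889, chromosome 11 from 98767932 to 98775333) encodes REV-ERB alpha, the receptor that represses *Arntl*. It was read at 178.2, 115 and 108 CPM in WT 1, 3 and 4 and at 198, 199, 189.9 and 175 CPM in A178D 1 to 4. WT 1 lay within the range of the A178D hearts, and the other WT hearts were below it. A log2 fold change of 0.51 ± 0.14 was fitted. *Nr1d1* overlaps 1075 bases of *Thra* on the opposite strand, and whether the counting used strand is not given in the sources used here. *Thra* had a log2 fold change of -0.02 ± 0.08, with levels between 69.6 and 85.2 CPM.

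*Nr1d2* (ENSMUSG00000021775, chromosome 14 from 18204054 to 18239127) encodes REV-ERB beta. Its level was 199.9, 214 and 234 CPM in WT 1, 3 and 4 and 176, 179, 189 and 165 CPM in A178D 1 to 4. All A178D hearts were below all WT hearts. The log2 fold change was -0.29 ± 0.07, so the 2 receptor genes differed in sign. Within single hearts, log2 *Nr1d1* minus log2 *Nr1d2* was -0.17, -0.89 and -1.12 in WT 1, 3 and 4 and 0.17, 0.15, 0.01 and 0.08 in A178D 1 to 4.

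**Figure D1:**
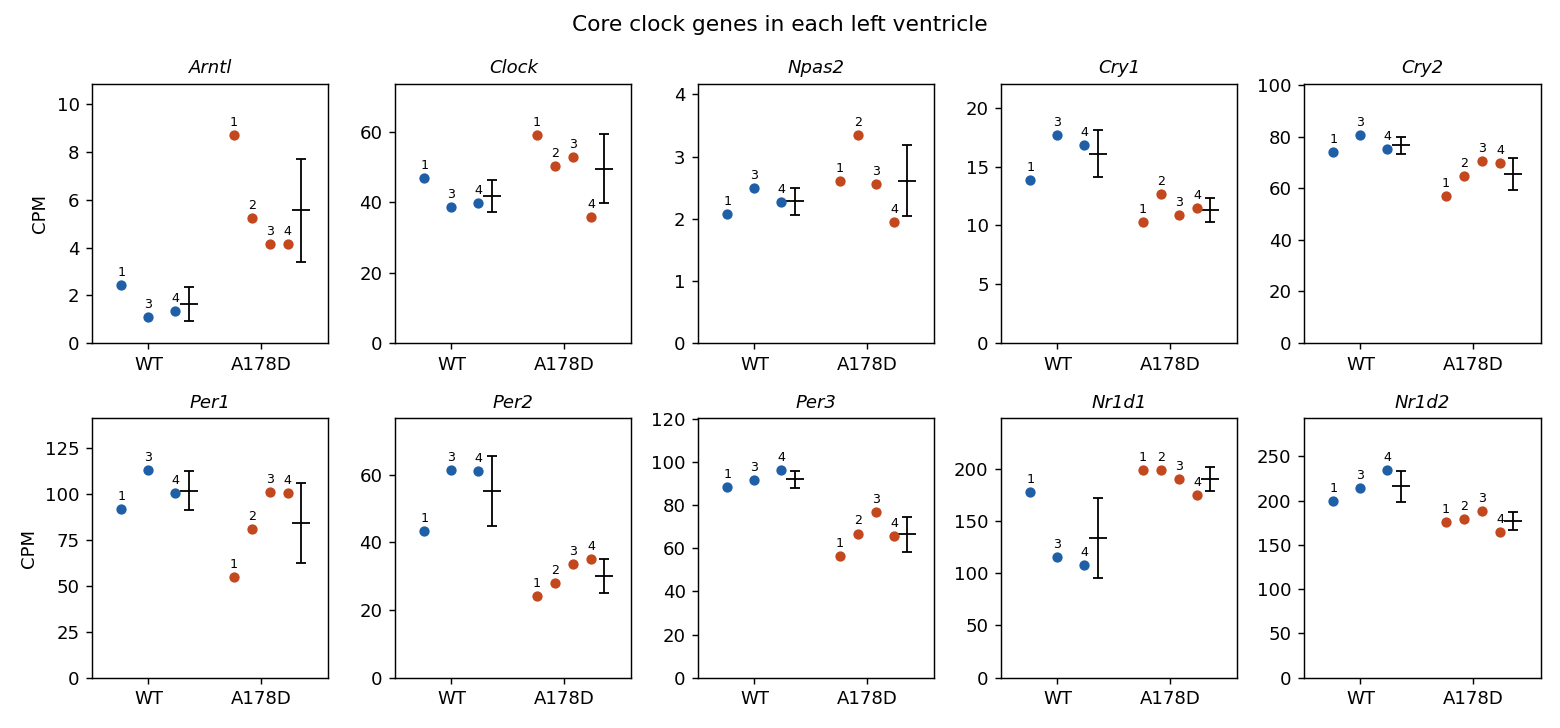
Each panel plots 1 core clock gene in CPM, with 1 numbered point per heart, WT in blue and A178D in orange, and a black bar for the mean and SD of the genotype. *Arntl* is read at 1.10 to 2.43 CPM in WT and 4.14 to 8.70 CPM in A178D hearts, while *Per2* is read at 43.3 to 61.3 CPM in WT and 24.0 to 35.0 CPM in A178D hearts.

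The genotype contrast of these genes was among the values known when they were chosen, so the following counts are a description. Without the collection times, a difference between the genotypes in a clock gene cannot be told apart from a difference in the time of day. With a Benjamini-Hochberg adjusted p under 0.05 in edgeR over all tested genes, 4 of the 10 were called, beside 2.35% of all genes. *Arntl* was called higher (1.04% of all genes were called in that direction), and *Per2*, *Per3* and *Cry1* were called lower (1.31% of all genes). With DESeq2's Wald test 6 of the 10 were called, *Nr1d1* and *Nr1d2* being added, beside 4.94% of all genes. The genotypes did not overlap in 6 of the 10 genes, beside 16.1% of all genes. The median log2 fold change was -0.25 over the 10 genes and 0.00 over all tested genes.

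These calls depended on single hearts. None of the 10 genes was called by edgeR without WT 3, 1 (*Per2*) without WT 4, 2 (*Arntl* and *Per2*) without A178D 1 and 3 without A178D 3, where *Cry1* was lost (adjusted p = 0.0899). Over all tested genes, 53, 82 and 90 genes were called in the first 3 of these fits, against 327 with all hearts. Without WT 1, 6 were called, as *Nr1d1* and *Nr1d2* were added, and without A178D 4, 5 were called, *Clock* being added. Calls over all tested genes rose as well, to 453 without WT 1 and 369 without A178D 4. The log2 fold changes moved as well. That of *Arntl* was 1.54 without WT 3, 1.65 without WT 4, 1.47 without A178D 1 and 2.20 without WT 1. That of *Per2* was -0.79, -0.80, -0.78 and -1.02 in the same 4 fits. *Per3* (-0.47, -0.44 and -0.40) and *Cry1* (-0.43, -0.48 and -0.46) lost their calls in the first 3 of these, and *Cry1* was at -0.49 without A178D 3. In relative terms other genes moved further, *Per1* from -0.27 to -0.11 and *Clock* from 0.25 to 0.15 without A178D 1, *Npas2* from 0.21 to 0.06 without A178D 2 and *Nr1d1* from 0.51 to 0.77 without WT 1. All 10 genes kept the sign of their fold change in each of the 7 fits that left out 1 heart.

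Whether antiphase genes moved oppositely was read within each genotype, where the contrast between genotypes plays no part. *Arntl* stood 0.66 above the WT mean on the log2 scale in WT 1, and 0.47 and 0.20 below it in WT 3 and 4 (differences of -0.47 and -0.20). In A178D its differences were 0.72, -0.01, -0.35 and -0.35 for hearts 1 to 4. WT 1 and A178D 1 were therefore the high *Arntl* hearts of their groups.

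*Per2* put the hearts of each genotype in the reverse order. Its log2 differences were -0.33, 0.17 and 0.16 in WT 1, 3 and 4. In A178D 1 to 4 they were -0.31, -0.10, 0.17 and 0.23. The spans of *Per2* were smaller than those of *Arntl*, at 0.50 within WT and 0.54 within A178D. A178D 2 was below its group mean in both *Arntl* and *Per2*. *Per1* differed by -0.14, 0.15 and -0.01 in WT and by -0.58, -0.02, 0.31 and 0.30 in A178D hearts. In both *Per* genes the hearts numbered 1 were low, and A178D 1 was the farthest from its group in *Per1*.

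The 7 hearts give 9 pairs of the same genotype, 3 in WT and 6 in A178D. *Per2* moved opposite to *Arntl* in 9 of the 9 pairs, *Per1* and *Cry2* in 8, *Cry1* in 7, *Per3* in 6, *Nr1d2* in 5 and *Nr1d1* in 2. At least 8 opposite pairs were seen in 6.60% of all tested genes, at least 7 in 16.7% and 9 in 1.38%, and the median gene had 5. Outside the core genes, the kinase gene *Csnk1e* also moved opposite to *Arntl* in 9 pairs. So did genes, not named here, of the clock-controlled and glucocorticoid-responsive lists below. *Zbtb16*, the called gene of the latter list, did so in 7. *Clock*, on the activator side, moved the same way as *Arntl* in 8 pairs, a number reached by 6.46% of all tested genes, and *Npas2* in 5, reached by 49.9%. The pairs share hearts and are not independent, and the order of *Arntl* between A178D 3 and A178D 4 rests on 4.15 against 4.14 CPM. No p was computed.

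The receptor genes and *Per3* had fewer opposite pairs than *Per1*, *Per2*, *Cry1* and *Cry2*. The 5 of *Nr1d2* equal the median gene, and the 6 of *Per3* were reached by 32.6% of all tested genes. *Nr1d1* had the fewest. It differed from its genotype mean by 0.45, -0.18 and -0.27 on the log2 scale in WT 1, 3 and 4, with the high value in the high *Arntl* heart, and by 0.06, 0.06, 0.00 and -0.12 in A178D 1 to 4. *Nr1d2* spanned 0.23 within WT and 0.20 within A178D, and thus varied little beside *Arntl*, which spanned 1.13 and 1.07. Small spans also occurred in *Cry2* (0.12 and 0.31), with 8 opposite pairs, and in *Cry1* (0.35 and 0.30), with 7.

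**Figure D2:**
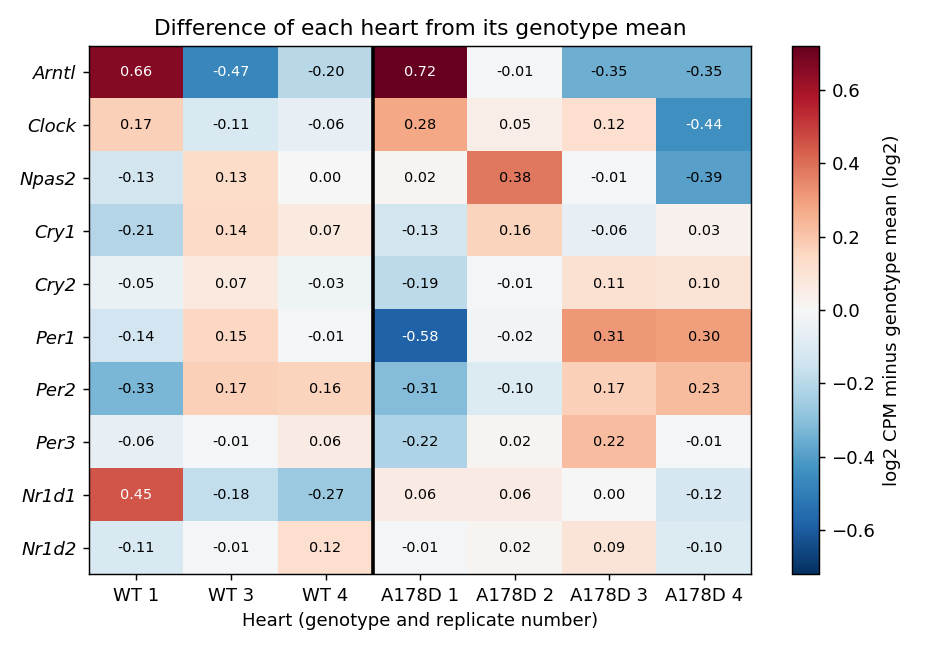
Each cell gives the log2 CPM of a core clock gene (row) in a heart (column) minus the mean of its genotype, in red where above it and in blue where below it, with a black line between WT and A178D. *Arntl* is at 0.66 and 0.72 in the hearts numbered 1, where *Per2* is at -0.33 and -0.31.

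The antiphase difference of a heart was taken as the mean log2 CPM of *Arntl*, *Clock* and *Npas2* minus that of *Per1*, *Per2*, *Per3*, *Nr1d1* and *Nr1d2*. It was -4.07, -4.52 and -4.44 in WT 1, 3 and 4 and -2.79, -3.20, -3.57 and -3.79 in A178D 1 to 4. The hearts numbered 1 were highest in both groups, and the groups did not overlap. The group means were -4.34 ± 0.24 (SD, n = 3) and -3.34 ± 0.44 (SD, n = 4), a difference of 1.01 that likewise cannot be told apart from one in collection time.

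The 3 activator genes gave a mean log2 CPM of 2.40 ± 0.21 in WT and 3.13 ± 0.31 in A178D hearts. The 3 *Per* genes gave 6.32 ± 0.16 and 5.76 ± 0.27. The 2 receptor genes gave 7.39 ± 0.15 and 7.52 ± 0.08, a mean over *Nr1d1*, which was higher in A178D, and *Nr1d2*, which was lower. Most of the activator difference comes from *Arntl* (log2 fold change 1.77), since *Clock* (0.25) and *Npas2* (0.21) overlapped between the genotypes, as *Per1* did among the *Per* genes.

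**Figure D3:**
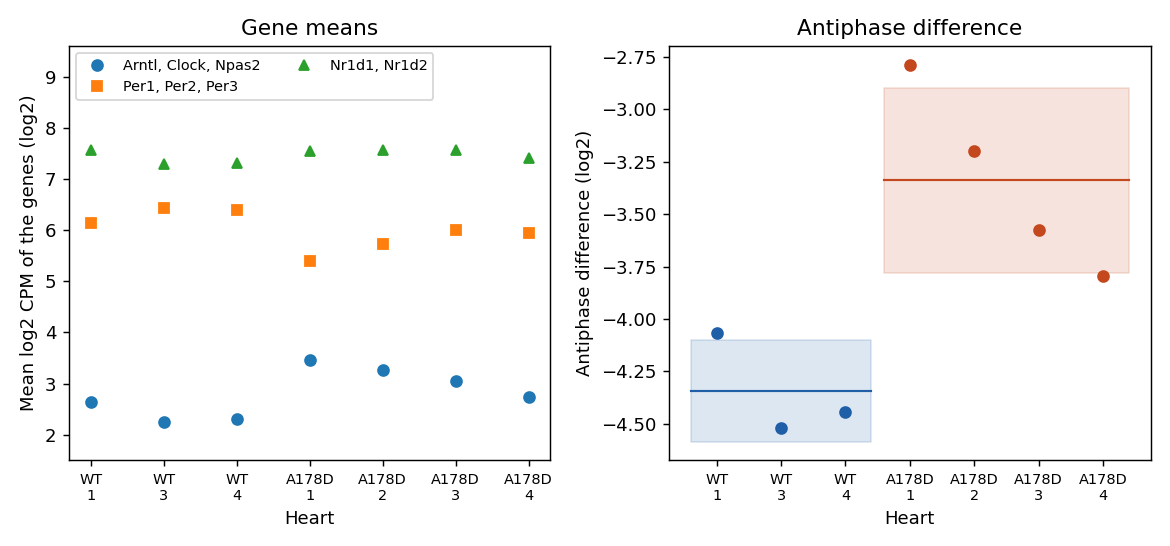
The left panel plots the mean log2 CPM of the activator genes (circles), the *Per* genes (squares) and the receptor genes (triangles) in each heart, and the right panel plots the antiphase difference in log2 units with a line for the mean and a band for the SD of each genotype. WT hearts lie between -4.52 and -4.07 and A178D hearts between -3.79 and -2.79.

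A further 37 genes of the wider clock were listed by name, and all were tested. Of these, 2 were called lower and 0 higher by edgeR, beside 1.31% and 1.04% of all genes. An unadjusted p under 0.05 was reached by 11 of them, beside 16.7% of all genes, and DESeq2 called 4 lower and 0 higher, beside 4.94% in either direction. Both called genes encode PAR bZIP factors, which the clock drives through E-boxes and which act on D-boxes. *Tef* was read at 334, 353 and 366 CPM in WT and 239.9, 265, 281 and 284 CPM in A178D hearts, with a log2 fold change of -0.39 ± 0.07 (adjusted p = 0.016 in edgeR). *Hlf* was read at 65.4, 69.6 and 78.1 CPM in WT and 45.7, 56.5, 57.5 and 52.8 CPM in A178D hearts, with a log2 fold change of -0.42 ± 0.09 (adjusted p = 0.0306 in edgeR). Neither gene was called without WT 3, WT 4 or A178D 1, where *Tef* had log2 fold changes of -0.39, -0.36 and -0.34 and *Hlf* of -0.43, -0.34 and -0.35.

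The third PAR bZIP gene, *Dbp*, had the same mean in both genotypes but not the same spread. It was read at 125, 119 and 128 CPM in WT 1, 3 and 4 and at 88.1, 120.0, 133 and 155 CPM in A178D 1 to 4, with a log2 fold change of 0.00 ± 0.14. Within A178D it moved opposite to *Arntl* in 6 of 6 pairs, and within WT in 1 of 3. The 7 opposite pairs of *Dbp* were reached by 16.7% of all tested genes. *Tef* also moved opposite to *Arntl* in 6 of 6 pairs within A178D, and in 2 of 3 within WT. Its 8 opposite pairs were reached by 6.60% of all tested genes. Other listed genes, such as *Csnk1e*, also had 6 of 6 within A178D, and the share of all genes with that count was not taken. These pairs include A178D 3 and 4, where *Arntl* was at 4.15 and 4.14 CPM. *Dbp* was singled out after its values were seen.

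None of the 3 ROR receptor genes, which activate *Arntl* through the elements that NR1D proteins also bind, was called by edgeR or DESeq2. In edgeR 2 had an unadjusted p under 0.05, beside 16.7% of all genes. *Rora* was read at 6.39, 5.83 and 7.63 CPM in WT and 4.98, 5.39, 4.73 and 3.77 CPM in A178D hearts, a log2 fold change of -0.48 ± 0.15. *Rorb* was near the lower end of detection, at 0.440 to 1.03 CPM in WT and 0.986 to 1.49 CPM in A178D hearts, a log2 fold change of 0.91 ± 0.35.

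No gene was called by edgeR among 13 kinases and turnover factors of clock proteins (1 had an unadjusted p under 0.05, and DESeq2 called 0) or among 14 clock cofactors (5 had one, beside 16.7% of all genes, and DESeq2 called 2, *Sirt1* and *Sfpq*, beside 4.94%). In the former, the largest fold changes were those of *Fbxl21* (log2 -0.23 ± 0.55), at 0.0618 to 0.726 CPM, and of *Csnk1e* (log2 -0.20 ± 0.08), at 48.9 to 57.2 CPM in WT and 43.0 to 48.0 CPM in A178D hearts. *Csnk1e* encodes a kinase of PER proteins. In the latter they were those of *Sirt1* (log2 -0.31 ± 0.09), an NAD-dependent deacetylase, and of *Ep300* (log2 -0.30 ± 0.10), a histone acetyltransferase. *Sirt1* was read at 19.0 to 20.1 CPM in WT and 15.3 to 16.5 CPM in A178D hearts.

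A list of 12 genes known to be under clock control in the heart was read beside the core genes. Of these, edgeR called 4 lower and 2 higher, beside 1.31% and 1.04% of all genes, and DESeq2 called 7, beside 4.94%. *Kcnd2*, a potassium channel gene of the transient outward current, was read at 48.5, 40.9 and 39.2 CPM in WT and 14.8, 18.2, 21.6 and 15.7 CPM in A178D hearts (log2 fold change -1.28 ± 0.12, adjusted p = 0.000283 in edgeR). *Wee1*, a kinase of the cell cycle with E-boxes in its promoter, was read at 31.9, 33.4 and 41.0 CPM in WT and 16.7, 20.2, 23.2 and 20.01 CPM in A178D hearts (log2 -0.82 ± 0.11, adjusted p = 0.00406 in edgeR). *Nampt*, the rate-limiting enzyme of NAD salvage, was read at 352, 392 and 503 CPM in WT and 271, 268, 254 and 255 CPM in A178D hearts (log2 -0.67 ± 0.10, adjusted p = 0.00564 in edgeR). In these 3 genes the groups did not overlap, and each was called in all 7 fits that left out 1 heart.

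*Pik3r1* was called lower (log2 -0.50 ± 0.08, adjusted p = 0.00731 in edgeR), and *Cdkn1a* (log2 0.54 ± 0.10, adjusted p = 0.0146) and *Bdh1* (log2 0.37 ± 0.07, adjusted p = 0.0154) were called higher. The latter pair was not called without WT 3, WT 4 or A178D 1, where *Cdkn1a* had log2 fold changes of 0.50, 0.51 and 0.52 and *Bdh1* of 0.40, 0.38 and 0.37.

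Clocks of peripheral tissues also take cues from glucocorticoids and temperature, and 18 genes that respond to these cues were listed. Of 10 glucocorticoid-responsive genes 1 was called (2.35% of all genes), *Zbtb16*, a transcription factor gene. An unadjusted p under 0.05 in edgeR was reached by 6 (16.7% of all genes), which were not all lower in A178D. Over the 10 genes, 7 log2 fold changes were below 0 and 3 above it. *Zbtb16* was read at 52.2, 79.4 and 89.1 CPM in WT and 27.1, 31.2, 28.7 and 39.6 CPM in A178D hearts (log2 -1.22 ± 0.16, adjusted p = 0.00224 in edgeR). WT 1 was the low WT heart, as it was in *Per2*. The summed level of the 10 genes was 499.7, 673 and 666 CPM in WT 1, 3 and 4 and 457, 516, 561 and 586 CPM in A178D 1 to 4, lowest in the hearts numbered 1. Of 8 temperature-cued genes 1 was called, *Hsph1*, a heat shock protein gene, at 45.3 to 50.9 CPM in WT and 64.2 to 104.4 CPM in A178D hearts (log2 0.87 ± 0.13, adjusted p = 0.00564 in edgeR). The 8 genes did not move together, with 4 log2 fold changes above 0, 4 below it and a median of 0.06. Of all 18 cue genes, 9 had an unadjusted p under 0.05 in edgeR (16.7% of all genes), and DESeq2 called 3 (4.94% of all genes). Without WT 1, edgeR called 6 of them, against 2 with all hearts. Over all tested genes it called 453 in that fit, against 327 with all hearts. The part of either cue in the clock values was not tested.

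Genes whose pattern was most like that of *Arntl* were ranked by Pearson's r of log2 CPM over the 7 hearts, among 12211 other tested genes whose mean count was at least 50. The hearts fall into genotypes, so r is a measure of likeness here and has no p. The highest values were those of *Cavin4* (0.990), *Tti1* (0.987), *Rras2* (0.984), *Igsf1* (0.984) and *Akap1* (0.983). The lowest were those of *Per2* (-0.993), *Lonrf1* (-0.990), *Ltbp1* (-0.988), *Podn* (-0.987) and *Ip6k1* (-0.982). *Per2* thus stood last of all 12211 genes.

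*Cavin4* was read at 158, 123 and 128 CPM in WT 1, 3 and 4 and at 208, 176, 173 and 176 CPM in A178D 1 to 4. *Lonrf1* was read at 19.8, 24.6 and 22.2 CPM in WT and at 11.5, 14.5, 15.7 and 14.8 CPM in A178D hearts. The hearts numbered 1 were the highest of their groups in *Cavin4* and the lowest in *Lonrf1*. These genes were picked for likeness over the same hearts, so their order within a genotype is not independent of that choice. With each genotype centred on its own mean, r was 0.971 for *Cavin4*, -0.955 for *Lonrf1* and -0.966 for *Per2*. By this measure *Cavin4* was number 4 from the highest of the 12211 genes, and *Lonrf1* and *Per2* were numbers 18 and 7 from the lowest. On the same centred scale the other core genes had r of 0.753 (*Nr1d1*), 0.702 (*Clock*), 0.00 (*Npas2*), -0.354 (*Nr1d2*), -0.722 (*Per3*), -0.738 (*Cry1*), -0.864 (*Cry2*) and -0.872 (*Per1*).

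Promoter windows from RefSeq (GRCm38.p6, 250 bases before to 50 after a gene's start) matched 9 of the 10 genes, in 13 windows, *Per2* being the gene without one. They were searched on both strands for the E-box of the activators (CACGTG), the D-box of the PAR bZIP factors (TTANGTAA) and the ROR element of the NR1D and ROR receptors (TNGGTCA). No match of 1 motif in these windows overlapped a match of another. Among all 32851 windows, 7.15% held the E-box, 2.32% the D-box and 11.0% the ROR element.

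The E-box was found in *Cry1* and *Per1*, and the D-box in *Per3*. The letters of the ROR element were found in *Arntl* (3 positions), *Cry2* and *Per3* (1 each). A narrower ROR pattern, with A or G as the second base, was tried after these matches were seen and then set aside. Among these matches it fits only that of *Arntl* with the letters TAGGTCA. The E-box and D-box matches and, of the 3 in *Arntl*, that with the letters TAGGTCA are printed, as examples of elements on both sides of the loop, chosen after the search. Capitals mark the motif and each sequence runs 5′ to 3′ along the gene's strand. Positions are counted from RefSeq starts, which can differ from the gene starts given above. The *Arntl* match lies in 1 of its 2 windows and begins at base 31 from the start at 113207511, counted as 1 (chr7:113207531-113207557, plus strand).
Arntl, ROR element: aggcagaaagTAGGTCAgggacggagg
Cry1, E-box: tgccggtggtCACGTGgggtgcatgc
Per1, E-box: cacccaagtcCACGTGcagggatgtg
Per3, D-box (far): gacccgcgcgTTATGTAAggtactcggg
Per3, D-box (near): ccgcccgcggTTATGTAAcccccgccgt
The *Cry1* match begins 60 bases before the start (chr10:85185099-85185124, minus strand) and the *Per1* match, in 1 of its 2 windows, 166 bases before the start at 69098949 (chr11:69098773-69098798, plus strand). The *Per3* matches begin 205 bases (chr4:151044853-151044880, minus strand) and 158 bases (chr4:151044806-151044833, minus strand) before the start. A match is a description of letters, and binding was not measured.

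Other features of the hearts were read beside the clock genes. With all hearts, 5 of 5 smooth muscle markers were called lower in A178D (1.31% of all genes), and their summed level was 442, 422 and 404 CPM in WT 1, 3 and 4 and 224, 290.3, 302 and 277 CPM in A178D 1 to 4. *Acta2*, the most abundant of them, and *Tagln* were called in all 7 fits that left out 1 heart. *Myh11* was called in 5 of these, and *Cnn1* and *Lmod1* in 1 each. Over these fits the log2 fold changes ran from -0.754 to -0.554 in *Myh11*, from -0.957 to -0.632 in *Cnn1* and from -0.791 to -0.559 in *Lmod1*. Of the high *Arntl* hearts, A178D 1 had the lowest sum of its group and WT 1 the highest. None of the 5 was at 0. In bulk tissue, fewer cells of a type and less RNA per cell cannot be told apart. The part of smooth muscle RNA in the clock values was not tested.

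Other marker lists were read in the same way. Of 5 fibroblast markers edgeR called 1 (2.35% of all genes) and DESeq2 2 (4.94%). The former was *Col3a1* (log2 0.62 ± 0.14, adjusted p = 0.0317 in edgeR). It was called in 3 of the 7 fits that left out 1 heart, with log2 fold changes from 0.423 to 0.809 over the 7. The sum of the 5 markers was 923, 955 and 879 CPM in WT and 1122, 1061, 1018 and 1027 CPM in A178D hearts. *Dcn* was the most abundant. Of 3 tested adipocyte markers edgeR (2.35% of all genes) and DESeq2 (4.94%) both called 1, *Cidea* (log2 0.43 ± 0.08, adjusted p = 0.0177 in edgeR). It was called in 3 of those fits, with log2 fold changes from 0.351 to 0.497 over the 7. *Adipoq* was at or under 0.443 CPM in every heart. EdgeR called no marker of endothelium (0 of 5 at an unadjusted p under 0.05, *Kdr* the most abundant), macrophages (3 of 5, 2 higher and 1 lower, beside 16.7% of all genes, *Csf1r*), erythrocytes (0 of 4, *Hbb-bs*) or skeletal muscle (0 of 3 tested, *Tnni2*). DESeq2 called 1 of these, a macrophage marker (*Adgre1*). The part of these cells in the clock values was not tested.

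Libraries also differed by gene length. Across 13893 tested genes, the Spearman correlation of a library's difference from the mean of 7 with exon length was 0.318 in WT 1, 0.055 in WT 3, 0.125 in WT 4, -0.063 in A178D 1, 0.072 in A178D 2, 0.085 in A178D 3 and -0.435 in A178D 4 (genes are not independent replicates). *Clock* has the longest merged exons of the 10 genes, 13.7 kb, and was lowest in A178D 4. The shorter *Npas2* (4.79 kb) and *Nr1d2* (5.41 kb) were also lowest in that heart. *Per3*, the next longest after *Clock* (9.61 kb), was not. The part of this trend in these levels was not tested. Without A178D 4 the log2 fold change of *Clock* rose from 0.25 to 0.37, and *Clock* was called (adjusted p = 0.0452 in edgeR). *Arntl* and *Per2*, of 7.52 and 5.86 kb, had log2 fold changes of 1.88 and -0.95 in that fit.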

How the data were processed

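RNA of 3 WT and 4 A178D left ventricles was sequenced from stranded poly(A) libraries, from both ends. The authors deposited raw counts per gene. Their processing notes name bcl2fastq 2.18.0.12, HISAT2 2.1.0, SAMtools 1.6, DESeq2 1.26.0 and GRCm38, and the counting program and annotation are not given in the sources used here. A second deposited table, scaled by DESeq2, was not used.

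Names, positions and merged exon lengths came from GENCODE M21 by Ensembl identifier, with 268 of 21257 entries unmatched. Sets of entries with identical counts (442 entries, at least 30 counts) were reduced to 1 each. Odd numbers made up 17.6 to 20.3% of counts from 1 to 20, so a fragment appears to have been counted from each of its ends in most cases, and low values such as those of *Arntl* rest on fewer molecules than counts. Depth ran from 33080675 to 54245530 counts.

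EdgeR 4.0.16 (R 4.3.3) gave the genotype contrast with TMM normalization, glmQLFit and glmQLFTest, and no covariate. Genes needed at least 10 counts in at least 3 libraries. Log2 CPM used a prior count of 1. Alternatives were DESeq2 1.42.0, its size factors in edgeR, limma-voom (3.58.1), no filter, the table as deposited, the replicate number as a block, each heart left out, and, for the antiphase difference, a prior count of 5 or *Cry1* on the activator side. The pipeline was tested on simulated data.

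Named genes were the 10 members, called genes of the wider clock, clock-controlled and timing cue lists (for lists with none, the 2 of largest fold change), the 5 most and 5 least like *Arntl*, the most abundant gene of each marker list, defining markers at 0, and *Ttn*. *Myl4*, *Sln*, *Myl7*, *Adipoq*, *Ddx3y*, *Dbp*, *Sfpq*, *Adgre1*, *Camta1*, *Thra* and the called markers *Tagln*, *Myh11*, *Cnn1*, *Lmod1* and *Col3a1* were added after their values were seen. Members and lists were chosen with earlier results of these data known, and no p was computed for the members as a set.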

Additional observations from a re-analysis of the deposited data

Results flagged for a closer look

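The A178D hearts were examined in each gene named in the text and in the antiphase difference. In 5 genes, 1 of the 4 A178D hearts lay far from the other 3 (a gap to the nearest, as a share of the range, above Dixon's critical value for 4 samples). *Cavin4* was at 208 CPM in A178D 1, against 173 to 176 CPM in the other A178D hearts. *Ip6k1* was at 69.1 CPM in A178D 1, against 76.9 to 77.9 CPM. *Dcn* was at 646 CPM in A178D 1, against 555 to 562 CPM. *Col3a1* was at 324 CPM in A178D 2, against 303 to 306 CPM. *Sln* was at 0.0991 CPM (4 counts) in A178D 1 and at 0 in the others. Chance gives such a gap in about 1 in 20 groups, and 62 groups were examined. *Cavin4* and *Ip6k1* were named for their likeness to *Arntl*, which was itself highest in A178D 1, so their gaps are not independent of that choice. None of the 10 core clock genes had such a gap.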

How the results depend on the processing

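Call counts, fold changes of named genes and the antiphase difference were recomputed under the alternatives, 1 choice at a time. Chosen after the data were seen, DESeq2's size factors left the opposite pair counts of the core genes and the last rank of *Per2* as they were. Centred r, order per kb, marker sums and motif matches were not recomputed. The number of genes called between the genotypes was 327, and 686 with DESeq2. Leaving out 1 heart gave between 53 (without WT 3) and 453 (without WT 1) genes, between 0 (without WT 3) and 6 (without WT 1) of the core clock genes against 4, between 0 and 2 of the wider clock genes against 2, and between 2 and 6 of the timing cue genes against 2. DESeq2 called 4 of the wider clock genes. Between 4 and 8 clock-controlled heart genes were called over all alternatives, against 6. The antiphase difference between the genotypes was 1.01, and 0.70 to 1.16 under its alternatives, the lowest with *Cry1* on the activator side. The cause of these changes was not tested. The fits that leave 1 out also hold fewer hearts. Some named genes that were not called changed sign. Over the leave-out fits, log2 fold changes ran from -0.735 (without A178D 3) to 0.087 (without A178D 4) in *Fbxl21*, from -0.121 (without A178D 4) to 0.135 (without A178D 1) in *Dbp*, from -0.067 (without WT 1) to 0.058 (without WT 4) in *Dcn*, from -0.035 (without WT 4) to 0.266 (without WT 1) in *Kdr*, from -0.298 (without A178D 3) to 0.137 (without WT 3) in *Tnni2*, from -0.039 (without WT 4) to 0.088 (without WT 1) in *Camta1* and from -0.071 (without WT 4) to 0.084 (without WT 1) in *Thra*. *Dbp* was also at -0.029 with limma-voom, -0.002 without the filter and -0.019 with the block, and *Dcn* at -0.001 without the filter.

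With the replicate number as a block, 271 genes were called, 5 of them core clock genes. Over all tested genes, same-numbered hearts had correlations of 0.002, -0.033 and -0.031 of their differences from the group means. Hearts with unlike numbers had -0.062 to 0.066. These values show no pairing by number over all genes. A pairing that moves only some genes was not tested. *Arntl* was read from 54 to 351 counts, so its order among hearts of close level was not resolved at this depth. Collection times were not used here.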
